A study of Mus musculus with 8 samples.

Results

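The 9 genes described here encode the receiving end of fibroblast growth factor (FGF) signaling and its brakes: the receptors *Fgfr1*, *Fgfr2*, *Fgfr3* and *Fgfr4*, the docking protein *Frs2*, the feedback inhibitors *Spry1*, *Spry2* and *Spry4*, and the ERK phosphatase *Dusp6*. They were taken by name from the 21951 protein-coding genes of the mouse annotation. Peaks belonged to a gene when they lay within 2000 bp of any of its transcription start sites (TSS; promoter peaks) or in its gene body. The data were ChIC-Seq, in which an antibody guides micrococcal nuclease to the chromatin that its antigen occupies and the released fragments are sequenced. The antigens were BRG1, the ATPase of the SWI/SNF chromatin remodeler, and PBRM1 (BAF180), a targeting subunit of it. All libraries came from stromal cells taken in primary culture from the uterus of WT females on D4, the day on which the uterus becomes receptive, with 3 replicates per antibody. Uterine horns of 5 to 10 mice, 8 to 12 weeks old, were pooled for a cell preparation, the stromal cells were plated for a few hours, and 50000 fixed cells went into a library. The labels name both pregnancy and pseudopregnancy for these mice. They do not say whether the replicates of an antibody are separate cell preparations, so that the p-values below measure the spread between these libraries only. The 2 IgG libraries were not analysed here.

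FGF ligands bind a receptor tyrosine kinase with heparan sulfate, and the activated receptor phosphorylates FRS2, which recruits GRB2, SOS and SHP2 and starts the RAS-ERK cascade. ERK signaling in turn raises the transcription of sprouty genes and of *Dusp6*, whose products lower RAS-ERK activity and dephosphorylate ERK. In the uterus, stromal FGFs act on receptors in the epithelium, and the balance of this signaling bears on epithelial proliferation before implantation. A peak of a chromatin remodeler at such a gene marks where the antigen was cut out of chromatin in these cells and does not measure expression.

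Each replicate was sequenced to 8868777 to 16505239 fragments and gave 21912 to 26363 PBRM1 peaks or 36656 to 40610 BRG1 peaks, and the pooled lists held 55119 and 82669 peaks. Fold enrichment is the height of a peak over the local background of its own library, as the authors' peak caller (MACS) wrote it, and no control library entered the calls. Fold enrichments of different libraries are not on a common scale, so that they are set side by side as a description. Where the antibodies do not overlap by fold enrichment, the share of sites over the genome that separate likewise was not computed. Promoter peaks in all 6 replicates were found at 5 of 8 stromal marker genes (*Vim*, *Des*, *Pdgfra*, *Nr2f2* and *Hoxa10*), 0 of 8 epithelial, 1 of 5 endothelial (*Kdr*), 0 of 5 immune and 0 of 4 smooth muscle marker genes, against 51.9% of all protein-coding genes. The stromal genes *Col1a1*, *Col3a1* and *Hoxa11* lacked a promoter peak in at least 1 PBRM1 replicate, and all 5 immune genes lacked it in every replicate. In all 3 BRG1 replicates, a promoter peak was found at 7 of 8 stromal and 3 of 8 epithelial genes (*Cdh1*, *Krt8* and *Epcam*). The same held for 3 of 5 endothelial genes (*Kdr*, *Tek* and *Pecam1*) and 1 of 4 smooth muscle genes (*Myh11*), against 61.4% of all protein-coding genes. The part of other cell types in the results was not tested.

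Peaks of the 8 lists that overlapped were merged into 1 site, and the site was placed by its pooled summit. The sequences of 7 sites are shown because they carry the contrasts described below, the 2 promoter sites each of *Dusp6* and *Frs2*, a promoter-edge site of *Spry2* that all 6 replicates shared, the distal site of *Fgfr2*, and the weak site of *Fgfr4*. They are windows of up to 201 bp around the summit, limited to bases that no annotated exon covers, in mm10 and on the strand of the gene. *Dusp6* lies on the plus strand, and its windows are chr10:99261564-99261764 and chr10:99263047-99263230. *Frs2* lies on the minus strand, with chr10:117150001-117150201 and chr10:117148535-117148732. The *Spry2* window is chr14:105898862-105899062 (minus strand), the *Fgfr2* window chr7:130319864-130320064 (minus strand) and the *Fgfr4* window chr13:55152967-55153167 (plus strand). Capitals mark exact matches, on either strand, to the CCAAT box (CCAAT), the GC box (GGGCGG) or an ETS core (CCGGAA).
Dusp6 upstream site: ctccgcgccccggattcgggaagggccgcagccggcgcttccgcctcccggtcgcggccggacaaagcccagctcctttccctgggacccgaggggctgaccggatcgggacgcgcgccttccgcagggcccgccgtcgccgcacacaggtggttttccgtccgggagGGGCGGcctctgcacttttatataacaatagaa
Dusp6 start site: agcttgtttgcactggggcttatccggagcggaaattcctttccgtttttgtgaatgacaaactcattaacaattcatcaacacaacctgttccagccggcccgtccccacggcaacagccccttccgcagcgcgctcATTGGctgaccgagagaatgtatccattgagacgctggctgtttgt
Frs2 upstream site: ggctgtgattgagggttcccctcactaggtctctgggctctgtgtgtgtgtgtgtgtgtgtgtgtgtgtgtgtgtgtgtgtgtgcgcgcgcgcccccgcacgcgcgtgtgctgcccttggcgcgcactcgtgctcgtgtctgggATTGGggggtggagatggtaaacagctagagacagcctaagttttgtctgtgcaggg
Frs2 start site: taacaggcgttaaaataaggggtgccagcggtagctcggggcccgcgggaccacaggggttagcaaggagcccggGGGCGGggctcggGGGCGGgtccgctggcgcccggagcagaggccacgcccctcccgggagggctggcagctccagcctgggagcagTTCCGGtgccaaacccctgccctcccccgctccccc
Spry2 upstream site: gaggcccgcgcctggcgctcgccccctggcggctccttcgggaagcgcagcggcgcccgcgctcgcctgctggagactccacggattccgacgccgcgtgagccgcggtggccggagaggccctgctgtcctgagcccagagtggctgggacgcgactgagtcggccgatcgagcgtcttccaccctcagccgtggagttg
Fgfr2 distal site: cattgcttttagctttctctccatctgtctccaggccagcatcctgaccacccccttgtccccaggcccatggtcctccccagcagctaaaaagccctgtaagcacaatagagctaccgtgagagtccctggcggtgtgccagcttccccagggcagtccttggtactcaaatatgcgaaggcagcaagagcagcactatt
Fgfr4 intron 1: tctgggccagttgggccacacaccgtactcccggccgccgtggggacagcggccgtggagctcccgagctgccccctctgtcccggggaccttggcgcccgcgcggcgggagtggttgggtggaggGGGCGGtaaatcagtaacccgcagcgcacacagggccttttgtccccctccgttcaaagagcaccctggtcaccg

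The windows differ in composition as well as in position. The *Dusp6* upstream window holds 26 CpG dinucleotides at 69.7% G and C, whereas its start-site window holds 11 at 52.2% and a CCAAT box. The *Frs2* start-site window holds 2 GC boxes and an ETS core, whereas its upstream window carries an uninterrupted GT repeat of 42 bases. The *Spry2* window holds 27 CpGs and the *Fgfr2* distal window 3. Over the 15 sites of the 9 genes with a peak in all 3 replicates of an antibody, or named as the strongest promoter site, the 201-bp summit window held a median of 17 CpGs (range 2 to 27) and 65.7% G and C (range 52.2% to 73.6%). The median over 55071 pooled PBRM1 summit windows was 6 CpGs and 57.2%, and over 82606 BRG1 windows it was 5 CpGs and 54.7%. Most of the 15 sites were promoter sites, whereas the pooled lists hold peaks of every position without a demand for replicate support. These medians and the motif shares below are therefore not a like-for-like background. GC boxes lay in 6 of the 15 windows, against 22.4% of PBRM1 and 20.6% of BRG1 windows, CCAAT boxes in 3 (18.3% and 21.1%) and ETS cores in 3 (7.51% and 6.75%). The letters of the AP-1 site (TGANTCA), present in 7.17% and 8.43% of all windows, were in 0 of the 15, as were those of the E-box (CACGTG; 4.94% and 5.48%), the cyclic AMP response element (TGACGTCA; 0.608% and 0.754%) and the GATA site (AGATAA; 5.19% and 5.87%). Overlapping matches of different motifs were each counted.

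All 9 genes had a promoter peak in every one of the 6 replicates and in both pooled lists. Over all protein-coding genes, 52.2% had a promoter peak in all 3 PBRM1 replicates, 61.4% in all 3 BRG1 replicates and 51.9% in all 6. A site shared by all 6 replicates lay within 500 bp of the TSS at *Fgfr1*, *Fgfr2*, *Fgfr3*, *Fgfr4*, *Frs2*, *Spry1* and *Spry4*, while at *Spry2* and *Dusp6* it lay farther upstream. With promoters limited to 500 bp, *Spry2* lost its promoter peak in all 6 replicates and *Dusp6* in PBRM1 replicate 1, which left 7 of 9 genes. With a −log10 q of at least 5, peaks were lost at *Fgfr4* (3 replicates), *Fgfr3* (2) and *Spry1* (1), which left 6 of 9. The shares of all protein-coding genes under these stricter settings were not computed, so that these counts have no background.

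**Figure D1:**
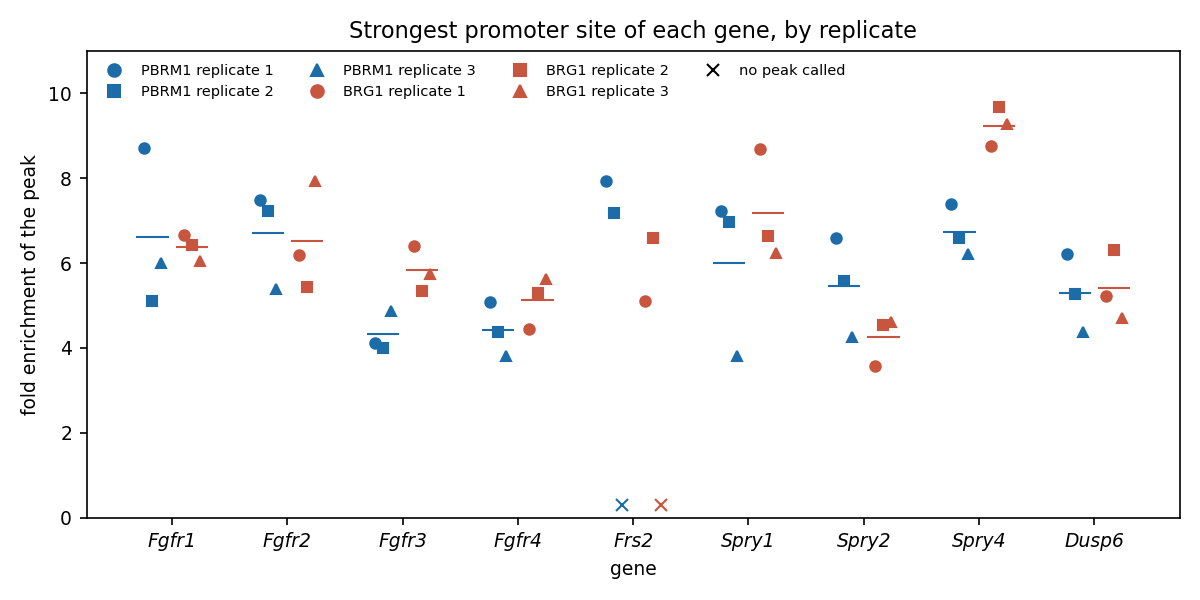
Fold enrichment (vertical axis, no unit) of the promoter site of each gene that was strongest in the pooled PBRM1 list. Points are the 3 PBRM1 (blue) and 3 BRG1 (red) replicates, with horizontal lines at the means and crosses where no peak was called. In the pooled BRG1 list, other promoter sites of *Dusp6*, *Frs2* and *Spry2* were higher than those shown. *Spry4* has the highest BRG1 values, 8.76 to 9.68, and the *Frs2* site lacks a peak in replicate 3 of both antibodies.

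*Fgfr1*, a receptor widely found in mesenchymal cells, carried 3 merged sites with peaks in all 3 replicates of an antibody (chr8:25513654-25575718, plus strand). The promoter site, chr8:25518632-25519975, had its pooled PBRM1 summit exactly at the TSS of the main coding transcript. Its PBRM1 fold enrichment was 8.71, 5.11 and 6.01 in replicates 1, 2 and 3, and its BRG1 fold enrichment was 6.66, 6.43 and 6.06. The means were 6.61 ± 1.87 and 6.38 ± 0.303 (SD, n = 3), the BRG1 values lay inside the range of the PBRM1 values, and PBRM1 replicates stood farther apart than BRG1 replicates. The noncoding gene *Gm16159* has a TSS within 2000 bp of another *Fgfr1* TSS, 37311 bp from that of the main coding transcript and outside this site.

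In intron 2 of *Fgfr1*, 24.9 kb downstream of the TSS, a site at chr8:25543153-25543826 was called in all 6 replicates and was the sole site beyond the promoters to be so. Its fold enrichment was 3.60, 4.77 and 4.93 for PBRM1 and 6.10, 6.40 and 6.14 for BRG1. Every BRG1 replicate was above every PBRM1 replicate, and the PBRM1 peak of replicate 1 rested on a pileup of 8 fragments and stood at the 3.40th percentile of its list. A broader site in the same intron, 18.1 kb from the TSS (chr8:25536405-25537814), was found in 3 BRG1 replicates (4.62, 6.77 and 5.27) and in PBRM1 replicates 1 (6.57) and 2 (4.35). The summits of those 2 PBRM1 peaks were 893 bp apart, so that they marked the opposite ends of the site. The BRG1 summits were up to 554 bp apart, and the BRG1 peak of replicate 2 did not overlap that of replicate 3.

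*Fgfr2*, whose epithelial and mesenchymal splice forms bind different FGFs, had the highest pooled PBRM1 fold enrichment of the 9 genes among promoter sites in all 6 replicates, 7.67, beside 7.15 for BRG1. The site spanned chr7:130264935-130266625, with its PBRM1 summit 252 bp upstream of the TSS. The replicates gave 7.48, 7.23 and 5.40 for PBRM1 and 6.20, 5.45 and 7.92 for BRG1. The means, 6.70 ± 1.14 and 6.52 ± 1.27 (SD, n = 3), differed by less than either SD. A second, weaker summit inside the gene, 979 to 1166 bp from the TSS, was called separately in PBRM1 replicates 1 and 2 and in all 3 BRG1 replicates, with fold enrichments of 3.33 to 5.07.

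The annotation carries *Fgfr2* over chr7:130162451-133123350, because 1 coding transcript starts at the promoter of *Ctbp2*, and 29 other protein-coding genes lie inside this span of 2960900 bp. Without that transcript the gene covers 103813 bp (chr7:130162451-130266263). Of the 125229 bp between this gene and the next protein-coding gene upstream, 10 sites were called in any list. The site 53.8 kb upstream of the TSS (chr7:130319781-130320537) stood out by its support, with BRG1 fold enrichments of 6.02, 7.84 and 6.36 and PBRM1 fold enrichments of 5.94 and 5.47 in replicates 1 and 3. PBRM1 replicate 2 had no peak there. The pooled summits of the antibodies at this site were 35 bp apart. The other 9 sites were each in at most 2 replicates of an antibody, as at 23.1 kb (BRG1 4.95 and 5.26, and PBRM1 3.79 in replicate 3) and 7.26 kb (BRG1 7.21 in replicate 3, PBRM1 4.61 in replicate 1). Inside the shorter gene, no site beyond the promoter was in all 3 replicates of either antibody.

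*Fgfr3*, known above all as a brake on cartilage growth, had a broad promoter peak in the pooled lists (gene chr5:33721674-33737068, plus strand). The pooled PBRM1 peak covered 2348 bp and the pooled BRG1 peak 2407 bp, over the TSS, exon 1 and part of intron 1. In the replicates, the strongest peak covered 604 to 690 bp for PBRM1 and 623 to 1293 bp for BRG1. The fold enrichment was 4.13, 3.99 and 4.88 for PBRM1 and 6.39, 5.35 and 5.73 for BRG1, with every BRG1 replicate above every PBRM1 replicate. Each BRG1 replicate had a further peak inside the span of the pooled peak. It was at 3.37 with its summit 1052 bp from the TSS in replicate 1, and at 4.05 and 4.08, 1687 and 1526 bp from the TSS, in replicates 2 and 3. The peak of replicate 1 did not overlap the other two, and no PBRM1 replicate had a second call there. The PBRM1 peaks stood at the 27.9th, 31.2nd and 58.1st percentile of their lists by q-value, where the highest percentile is the strongest peak. The noncoding gene *G630022F23Rik* has a TSS within 2000 bp, and the peak cannot be assigned to either gene alone.

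*Fgfr4* had the weakest promoter peak of the 9 genes by rank (gene chr13:55152640-55168759, plus strand). Its site, chr13:55152494-55153375, had its summit in intron 1, 427 bp from the TSS, in the window printed above. The fold enrichment was 5.07, 4.39 and 3.80 for PBRM1 and 4.45, 5.29 and 5.62 for BRG1, on pileups of only 10 to 12 fragments in every replicate. The means were 4.42 ± 0.637 and 5.12 ± 0.604 (SD, n = 3), and the groups overlapped. At the 20000 strongest peaks of each list, the BRG1 peak of replicates 1 and 2 was no longer included.

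*Frs2*, the docking protein that links the receptors to GRB2 and SHP2, had a pair of promoter sites that differed in replicate support (gene chr10:117069427-117148534, minus strand). The site at the TSS, with its summit 122 bp upstream, was called in all 6 replicates, with 3.91, 4.12 and 3.96 for PBRM1 and 6.00, 4.92 and 7.24 for BRG1. All BRG1 values were above all PBRM1 values, and the means were 4.00 ± 0.109 and 6.06 ± 1.16 (SD, n = 3). The site 1.59 kb upstream, which holds the GT repeat, had higher PBRM1 values, 7.93 and 7.17 in replicates 1 and 2, and BRG1 values of 5.11 and 6.59. Replicate 3 of both antibodies had no peak there, although PBRM1 replicate 3 was the deepest library. The part of the repeat in these calls was not tested, and neither was a preference of the upstream site for either antigen. In the gene body, 5 sites were called, none of them in all 3 replicates of an antibody, and the most frequent, 53.4 kb from the TSS in intron 4, was in BRG1 replicates 2 (4.53) and 3 (4.97).

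**Figure D2:**
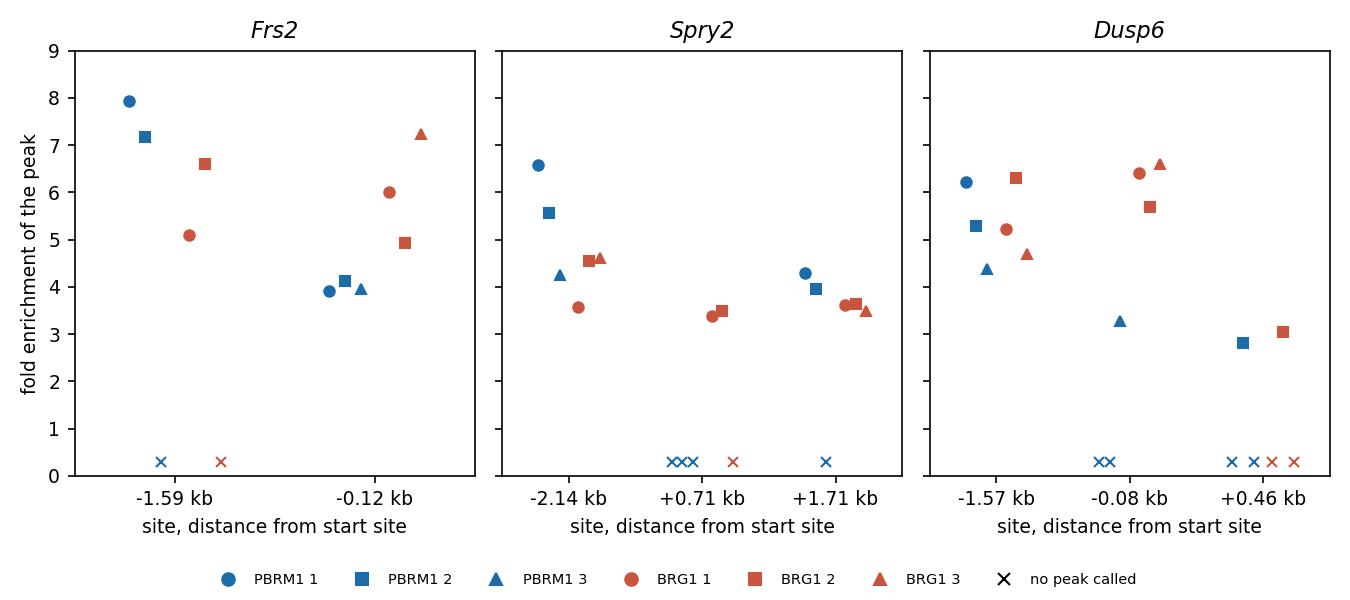
Fold enrichment (vertical axis, no unit) of the promoter sites of *Frs2*, *Spry2* and *Dusp6* found in at least 2 replicates, by the distance of the site from the TSS (horizontal axis, kb). Crosses mark replicates without a called peak, such as PBRM1 replicates 1 and 2 at the *Dusp6* start site, where the 3 BRG1 replicates reach 5.70 to 6.60.

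*Spry1* encodes a sprouty protein, an ERK-induced inhibitor of RAS-ERK signaling, and is a short gene (chr3:37639947-37644598, plus strand). Its promoter site, chr3:37639694-37640529, had a summit in exon 1, 98 bp from the TSS. PBRM1 gave 7.22, 6.97 and 3.81, and BRG1 gave 8.68, 6.63 and 6.23. PBRM1 replicate 3 was apart from the other replicates, with a pileup of 13 fragments against 22 and 25, and stood at the 20.8th percentile of its list. A second site 1.14 kb from the TSS, in intron 2, was in PBRM1 replicate 2 (4.86) and BRG1 replicates 1 (3.35) and 3 (4.71). The gene *Gm42922*, also of the TEC class, has a TSS 709 bp from that of *Spry1*, outside the promoter site.

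*Spry2*, a second sprouty inhibitor, had its peaks beside the TSS rather than on it (gene chr14:105891947-105896819, minus strand). The strongest in the PBRM1 lists, chr14:105898599-105899087, had its summit 2.14 kb upstream and counted as a promoter peak because its nearer edge lay within 2000 bp. PBRM1 gave 6.59, 5.57 and 4.25, and BRG1 gave 3.58, 4.55 and 4.62. The means were 5.47 ± 1.17 and 4.25 ± 0.579 (SD, n = 3), with overlapping values. In the intron, a site 1.71 kb from the TSS was in all 3 BRG1 replicates (3.61, 3.63 and 3.49) and in PBRM1 replicates 1 (4.29) and 2 (3.95). A further site 711 bp from the TSS was in BRG1 replicates 1 (3.38) and 2 (3.48) and in no PBRM1 replicate, although the pooled PBRM1 list called it at 2.71. Just upstream of the TSS, 634 bp away, a peak was called in the pooled BRG1 list alone, at 4.62, above the 4.17 of the upstream site in that list, and in no replicate.

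*Spry4* had the strongest BRG1 promoter peak of the 9 genes in every BRG1 replicate by rank and by fold enrichment (gene chr18:38586247-38601415, minus strand). The site spanned 1783 bp over the TSS and exon 1. BRG1 gave 8.76, 9.68 and 9.27, a mean of 9.24 ± 0.458 (SD, n = 3), and PBRM1 gave 7.39, 6.59 and 6.22, a mean of 6.73 ± 0.597 (SD, n = 3). No PBRM1 replicate reached the lowest BRG1 replicate. The BRG1 peaks rested on pileups of 52 to 58 fragments and the PBRM1 peaks on 26 to 30. The noncoding gene *AC133601.1* on the opposite strand has start sites 119 and 188 bp from that of *Spry4*, and the domain covers them as well. A site in exon 2, 10.9 kb from the TSS, was in BRG1 replicates 1 (3.42) and 3 (4.03).

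*Dusp6*, the cytoplasmic phosphatase that acts on ERK, showed the clearest split between its promoter sites (gene chr10:99263231-99267489, plus strand). The site 1.57 kb upstream was shared by all 6 replicates, with 6.21, 5.28 and 4.38 for PBRM1 and 5.23, 6.30 and 4.69 for BRG1. Its means, 5.29 ± 0.913 and 5.41 ± 0.817 (SD, n = 3), did not separate the antibodies. The site 84 bp upstream of the TSS was in all 3 BRG1 replicates, at 6.42, 5.70 and 6.60 (6.24 ± 0.475, SD, n = 3) with summits within 11 bp of each other. Of the PBRM1 replicates, only replicate 3 had a peak there, at 3.27 and the 32.0th percentile of its list. The pooled PBRM1 list called this site at 2.99, against 6.67 in the pooled BRG1 list, which rests on nearly as many fragments (38144108 and 37842839). At the upstream site the same pooled lists gave 5.25 and 5.32. The sequences of both sites are printed above.

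Across the 9 genes, with the shorter *Fgfr2*, 42 sites were called in at least 1 list, 24 of them promoter sites and 18 in gene bodies. In all 6 replicates 10 sites were called, 9 promoter sites and the intronic site of *Fgfr1*. Replicates of both antibodies had 16 sites, BRG1 replicates alone 15, PBRM1 replicates alone 1, and 10 sites were in a pooled list only. Of the 18 gene body sites, 10 were in BRG1 replicates only, 1 in PBRM1 replicates only, 2 in both and 5 in a pooled list only. The BRG1 lists were longer, and the share of such sites over the genome was not computed. Some sites in BRG1 replicates only were also in the pooled PBRM1 list, such as that in intron 4 of *Frs2* 53.4 kb from the TSS (4.47). At the 10 sites in all 6 replicates, the pooled PBRM1 and BRG1 summits lay 3 to 333 bp apart, with a median of 64 bp.

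**Figure D3:**
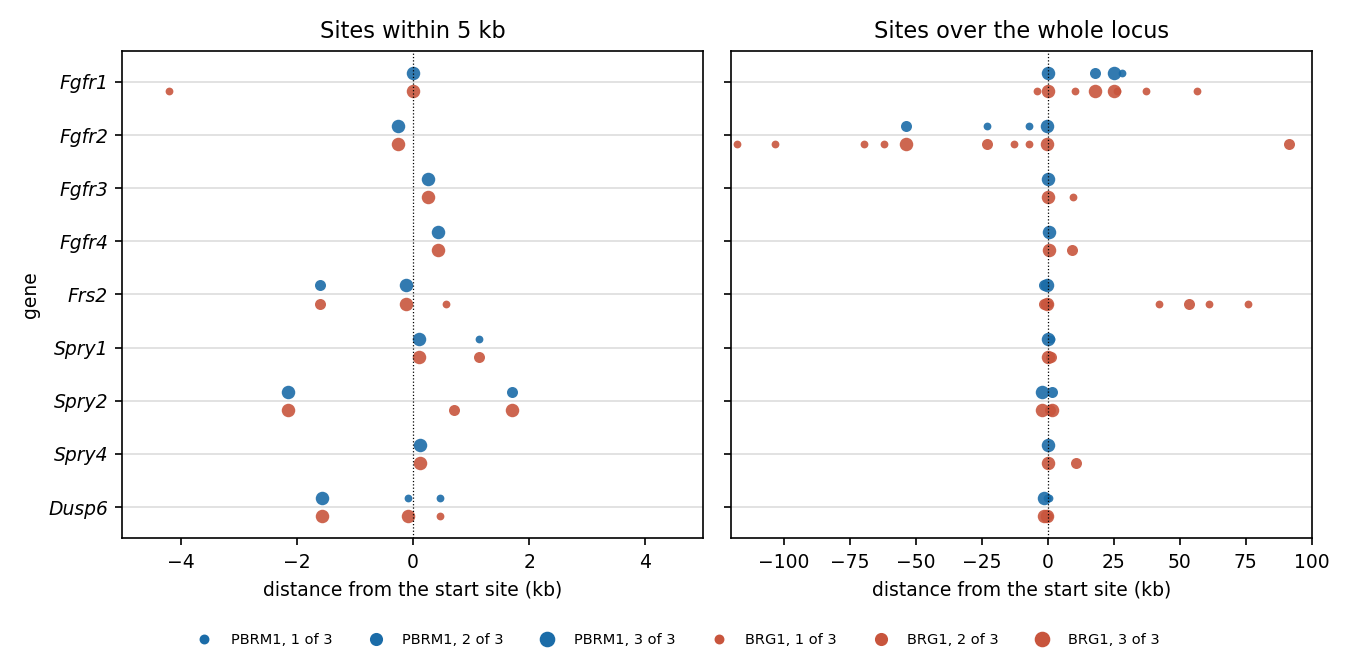
Sites of each gene by distance of the summit from the TSS (horizontal axis, kb), within 5 kb (left) and over the whole locus (right), for PBRM1 (blue, above each line) and BRG1 (red, below). A larger point means more of the 3 replicates, and sites far from the TSS are mostly small red points, while the shared sites cluster at the TSS.

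BRG1 replicates held more peaks at the 9 genes than PBRM1 replicates, and their whole lists were longer. With the annotated gene bodies, the replicates held 63, 66 and 55 PBRM1 and 104, 102 and 96 BRG1 peaks at the 9 genes, a difference in means (PBRM1 minus BRG1) of −39.3 (p = 0.1 in an exact permutation test, two-sided, and 3 against 3 allows no smaller p). Without the long *Fgfr2* transcript, the counts were 14, 18 and 11 against 27, 20 and 25, a difference of −9.67 (exact permutation test, p = 0.1), and peaks beyond the promoters numbered 2, 3 and 1 against 9, 3 and 8. Per 10000 peaks of the list, the annotated genes held 27.4, 25.0 and 25.1 PBRM1 and 25.6, 27.8 and 25.5 BRG1 peaks. These values overlapped, with a difference of −0.472 (exact permutation test, p = 0.5), and without the long transcript it was −0.271 (exact permutation test, p = 0.7). The number of genes with a promoter peak was 9 in every replicate, a difference of 0. In the pooled lists, 111 PBRM1 and 204 BRG1 peaks lay in annotated bodies beyond the promoters, of which 8 and 16 remained without the long transcript.

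Each gene's strongest promoter peak was also ranked by q-value as a percentile of its own list. A percentile depends on the length of the list, since each further weak peak lifts the peaks above it, and the BRG1 lists were longer. The percentiles therefore order the genes within an antibody, and the antibodies are compared below both with the whole lists and with lists of equal length. The strongest peak was not at the same site in every replicate for *Dusp6*, *Frs2* and *Spry2*. For *Fgfr2* the usual TSS was used. In PBRM1, the order of the mean percentiles was *Spry4* (77.6 ± 3.88), *Fgfr2* (73.4 ± 6.45), *Dusp6* (72.8 ± 4.17), *Fgfr1* (72.1 ± 15.3), *Frs2* (69.1 ± 19.7), *Spry2* (64.1 ± 9.39), *Spry1* (54.4 ± 29.2), *Fgfr3* (39.1 ± 16.6) and *Fgfr4* (24.5 ± 11.9; SD, n = 3 each). Every neighbouring pair in this order overlapped between replicates. In BRG1 the order was *Spry4* (91.2 ± 0.736), *Dusp6* (85.3 ± 1.77), *Frs2* (78.6 ± 3.40), *Fgfr1* (76.6 ± 3.27), *Spry1* (74.2 ± 7.74), *Fgfr2* (69.9 ± 9.03), *Fgfr3* (68.6 ± 5.99), *Spry2* (59.7 ± 6.51) and *Fgfr4* (40.4 ± 9.46; SD, n = 3 each). There, the replicates of *Spry4* were all above those of *Dusp6*, those of *Dusp6* above those of *Frs2*, those of *Fgfr3* above those of *Spry2*, and those of *Spry2* above those of *Fgfr4*. The other neighbours overlapped. *Spry4* led both orders and *Fgfr4* closed both.

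With the whole lists, at *Spry4*, *Dusp6* and *Fgfr3* every PBRM1 replicate ranked below every BRG1 replicate (3 of 9 genes), while among all 11388 genes with a promoter peak in all 6 replicates, 40.0% did so. No gene of the 9 ranked higher in every PBRM1 replicate, against 2.76% of those genes. The differences in percentile were −13.6 at *Spry4*, −12.5 at *Dusp6* and −29.5 at *Fgfr3* (two-sided exact permutation test, p = 0.1 each, adjusted p = 0.3 over the 9 genes). At *Dusp6* this set different sites against each other, the upstream site in all PBRM1 replicates and the start site in BRG1 replicates 1 and 3, and at the upstream site alone the difference was −4.55 with overlapping values (exact permutation test, p = 0.4). Percentiles of the other 6 genes overlapped between the antibodies, with exact permutation p-values of 0.2 to 0.9. The median percentile of the 9 genes per replicate was 73.2, 74.0 and 58.1 for PBRM1 and 76.3, 71.6 and 74.3 for BRG1, a difference of −5.62 (exact permutation test, p = 0.4). With the annotated *Fgfr2*, whose peak is then that of the *Ctbp2* promoter, the replicates gave 73.9, 74.0 and 58.1 against 80.3, 75.1 and 74.3, a difference of −7.91 (exact permutation test, p = 0.1). Over all genes with a promoter peak the median percentile was 72.1, 75.0 and 72.8 in the PBRM1 and 82.4, 81.0 and 81.3 in the BRG1 replicates. The 9 genes thus had medians below those of all genes in every BRG1 replicate and in PBRM1 replicates 2 and 3.

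With the 20000 strongest peaks of each replicate list, ranked anew, the medians over all genes with a promoter peak came together, at 68.9, 69.4 and 71.0 for PBRM1 and 69.5, 69.4 and 69.3 for BRG1. Of 10664 genes with a promoter peak in all 6 of these lists, 13.2% ranked lower in every PBRM1 replicate and 13.0% higher. Of the 9 genes 8 were among them, since *Fgfr4* was missing from BRG1 replicates 1 and 2. *Spry4* still ranked lower in every PBRM1 replicate, at 70.1, 70.0 and 79.9 against 80.7, 85.3 and 83.1. *Fgfr2* ranked higher in every PBRM1 replicate, at 69.2, 73.6 and 63.9 against 39.5, 28.1 and 60.2, as did *Spry2*, at 64.2, 60.7 and 48.8 against 2.86, 31.8 and 32.3. *Dusp6* and *Fgfr3* overlapped between the antibodies, as did the other 3 genes. With the annotated *Fgfr2*, the difference in the median percentile of the 9 genes turned from −7.91 to 6.45 (exact permutation test, p = 0.3), so that its sign depended on the length of the lists.

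**Figure D4:**
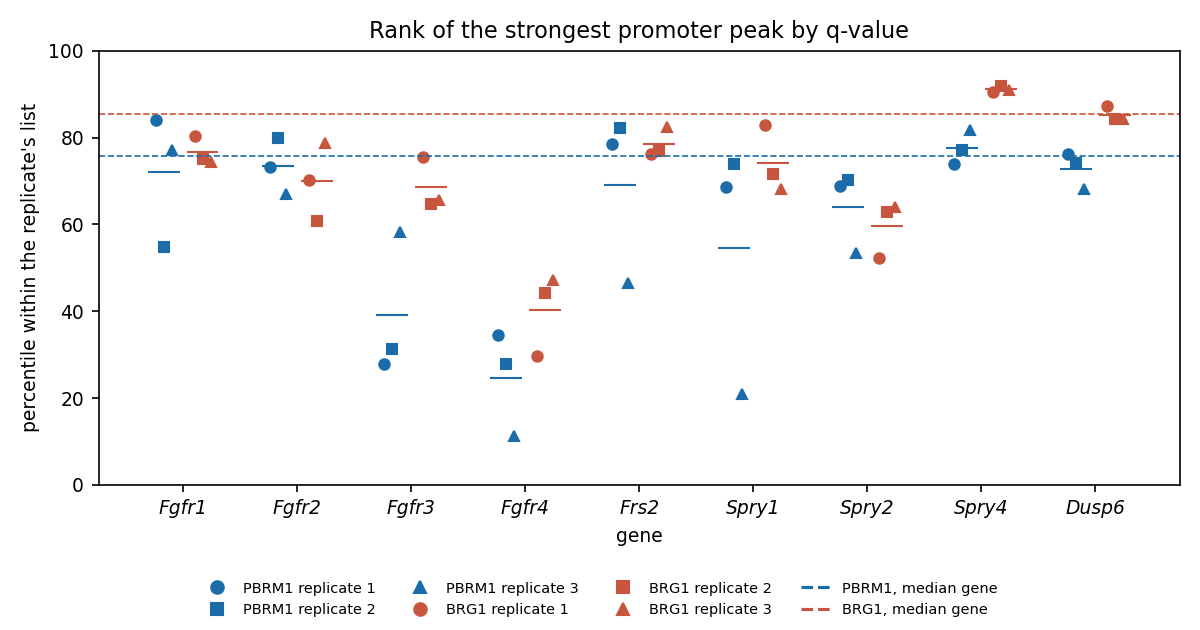
Percentile (vertical axis, 0 to 100, by q-value within the list) of the strongest promoter peak of each gene in the PBRM1 (blue) and BRG1 (red) replicates, with solid lines at the means. Dashed lines are the medians over the 11388 genes with a promoter peak in all 6 replicates, 75.7 for PBRM1 and 85.4 for BRG1, whose lists were longer, and *Fgfr4* lies below both lines in all 6 replicates.

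Among single sites in all 6 replicates, 4 of 10 ranked lower in every PBRM1 than in every BRG1 replicate of the whole lists and 0 higher, against 38.9% and 2.47% of the 13091 such sites of the genome. They were the *Frs2* start site (36.4 ± 12.7 against 73.8 ± 10.1), the intronic site of *Fgfr1* (33.0 ± 26.5 against 64.6 ± 2.04), and the promoter sites of *Fgfr3* and *Spry4*. Each had p = 0.1 by the exact permutation test and an adjusted p of 0.25 over the 10 sites. The PBRM1 mean was the higher at the *Spry2* upstream site, 64.1 ± 9.39 against 58.3 ± 8.78, and at the *Fgfr2* promoter site, 73.4 ± 6.45 against 69.9 ± 9.03 (SD, n = 3 each), with overlapping values at both. PBRM1 replicate 3 had the lowest PBRM1 fold enrichment at 6 of the 10 sites, although it had the most fragments, and the median fold enrichment over its whole list was also the lowest of the PBRM1 replicates (4.75, against 5.80 and 5.15).

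Most other genes of the pathway also carried promoter peaks of both antigens. Of 18 adaptors and members of the RAS-ERK core, 17 had a promoter peak in all 6 replicates, and *Sos2*, an exchange factor for RAS, lacked it in 1 PBRM1 replicate. Among the highest mean PBRM1 fold enrichments of these genes were those at *Map2k2*, a kinase of ERK (8.49 ± 1.48, with 9.09 ± 1.19 for BRG1), and *Grb2* (8.37 ± 1.81 and 10.5 ± 0.635; SD, n = 3 each). Of 11 other feedback inhibitors found in the annotation, 10 had it, led by *Il17rd*, an FGF receptor antagonist (8.80 ± 0.924 and 11.8 ± 1.16), *Spred1*, a sprouty relative (8.55 ± 1.98 and 7.38 ± 1.34), and *Dusp5*, a nuclear ERK phosphatase (8.40 ± 1.49 and 11.1 ± 1.69). *Dusp9* had a promoter peak in 1 PBRM1 and 3 BRG1 replicates, and *Spry3* was not matched.

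All 8 ERK-responsive transcription factor genes had a promoter peak in all 6 replicates, led by *Fosl1*, an AP-1 subunit (9.97 ± 2.48 and 9.85 ± 1.50), and the ETS factors *Etv5* (8.63 ± 1.16 and 9.14 ± 0.167) and *Etv1* (6.90 ± 0.927 and 7.06 ± 0.182). Coreceptors and binding partners did so in 8 of 12 cases. The highest were *Sdc2*, a heparan sulfate proteoglycan (8.23 ± 1.20 and 9.22 ± 0.904), *Fgfrl1*, a receptor without a kinase domain (7.52 ± 1.21 and 8.91 ± 1.18), and *Sdc4* (6.47 ± 0.510 and 8.32 ± 0.367; SD, n = 3 each). *Klb*, the coreceptor for the endocrine FGF21, had none in any replicate, and *Kl* had it in 2 PBRM1 and 3 BRG1 replicates. Over the 4 lists, 43 of 49 genes had a promoter peak in all 6 replicates, against 51.9% of all genes, and 12 of these 43 ranked lower in every PBRM1 replicate and 0 higher, against 40.0% and 2.76%.

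By the fold enrichment of the 6 replicates on a log2 scale, the genes most like *Fgfr2* among the 11388 were *Ppp1r15a* and *Plekha4*, at a Euclidean distance of 0.21, and *Slc50a1*, at 0.22. *Ppp1r15a* and *Plekha4* gave identical values, since their start sites share a peak (7.21, 7.38 and 4.82 for PBRM1 and 6.22, 5.23 and 8.49 for BRG1). *Slc50a1* gave 7.58, 6.48 and 5.50 and 5.98, 5.61 and 7.21.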

How the data were processed

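ChIC-Seq peak lists of PBRM1 and BRG1 from D4 WT uterine stromal cells were analyzed, 3 replicate lists and 1 pooled list per antibody. According to the methods and the file headers, the authors aligned read pairs to mm10, removed duplicates and called peaks with MACS 2.2.7.1 at a q-value cutoff of 0.05, without a control file, over a regional background of 10000 bp. The deposited lists hold 3 values per peak from the authors' peak caller, the fold enrichment ratio, the pileup signal (coverage) and the −log10 q-value.

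Peaks were placed at genes by an overlap of at least 1 bp with Python 3.11.15, numpy 2.4.6, pandas 2.3.3 and scipy 1.17.1, using the full GENCODE annotation of mm10, and sequences were read from the RefSeq copy of the same assembly. All 9 genes were reported, with their strongest promoter site by pooled PBRM1 fold enrichment and sites in all 3 replicates of an antibody; other sites with values were named after these were seen. In the other lists, genes without a promoter peak in any replicate and the 3 highest by mean PBRM1 fold enrichment were named by rule, except 1 gene that is not reported here; *Sos2*, *Dusp9* and *Kl*, as well as single marker genes, were named after their values were seen. The genes and lists were chosen with earlier results of these data known. The placement of peaks was tested on simulated data. Alternatives were other promoter distances and transcript sets, placement by summit, stricter q-values, equal list lengths, each replicate left out and pairing by replicate number; the *Fgfr2* gene without its long transcript and percentiles within lists of equal length were added after the data were seen. The depth of a pileup limits each value, and intervals were not computed.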

Additional observations from a re-analysis of the deposited data

How the results depend on the processing

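In the 128 alternative values computed for 9 results, 107 kept their direction and their side of the threshold or, for counts, stayed within 1.5 times. The design cannot reach p below 0.1 with 3 replicates against 3, or below 0.25 with 3 pairs, so that these p-values say nothing about stability. Depth limits the weakest peaks, such as that of *Fgfr4*, which rest on pileups of 10 to 12 fragments.

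The difference in the number of genes with a promoter peak, 0 in the report, was −0.333 with promoters of 500 bp (with or without the long *Fgfr2* transcript) or with peaks placed by their summit, −1.33 when peaks needed a −log10 q-value over 5, and 0.667 with the 20000 strongest peaks of each replicate list. With those 20000 peaks the difference in peaks at the 9 genes turned from −39.3 to 2.33, as the lists were then of equal length. The difference per 10000 peaks turned to 1.17 with that setting and to 1.05 with that q-value limit, and over the replicates left out in turn it ranged from −1.26 to 0.280, the latter without BRG1 replicate 2. The other results kept their direction with each replicate left out. Of the 111 pooled PBRM1 and 204 pooled BRG1 peaks beyond promoters, 8 and 16 were left without the long *Fgfr2* transcript and 24 and 38 when a peak in all 3 replicates was required, and the q-value limit left 127 BRG1 peaks. With 1 replicate left out of that requirement the counts were 26 to 31 for PBRM1 and 44 to 47 for BRG1.

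The median percentile difference ranged from −10.6 to −2.64 over the replicates left out, the latter without PBRM1 replicate 3, where it moved by more than 1.5 times. It was −21.6 with promoters of 500 bp, −4.60 with that q-value limit, and turned to 6.45 (exact permutation test, p = 0.3) with the 20000 strongest peaks ranked anew, a choice made after the data were seen. With a replicate block (paired by replicate number, exact sign-flip permutation test) the differences were the same by construction, −39.3 peaks (p = 0.25), −0.472 per 10000 peaks (p = 0.75), −7.91 percentiles (p = 0.25) and 0 genes (p = 1). The correlation of the deviations of same-numbered replicates over 11388 genes was −0.0216, −0.00167 and 0.00427. It cannot tell whether they share a cell preparation, since no pair known to do so was available.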

Other observations

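Sites outside the gene bodies, with a peak in all 3 replicates of an antibody and a nearest protein-coding TSS of one of the 9 genes, lay within 100000 bp of 7 genes. The share of all protein-coding genes with such a site was not computed, and the following are examples. *Spry4* had a site 30.4 kb upstream (chr18:38631361-38632411) that was in all 6 replicates, with fold enrichments of 6.36, 7.40 and 5.83 for PBRM1 and 9.82, 8.25 and 9.69 for BRG1. As at its promoter, every BRG1 replicate was above every PBRM1 replicate. *Fgfr4*, whose promoter peak was the weakest of the 9 genes by mean rank within the lists of either antibody, had sites downstream of the gene. The site 0.457 kb past its end gave 8.03, 5.25 and 4.59 for PBRM1 and 7.18, 5.96 and 6.98 for BRG1, and the site 13.9 kb past its end gave 5.74, 7.88 and 4.15 and 8.55, 5.06 and 6.61. *Fgfr3* had a site 26.1 kb upstream (chr5:33695145-33696053) with 5.82, 4.50 and 4.30 for PBRM1 and 5.27, 6.85 and 5.79 for BRG1.

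Further sites were in all 3 BRG1 replicates but not in all PBRM1 replicates. *Fgfr2* had such sites 33.0 kb and 88.3 kb past the end of the gene, with BRG1 fold enrichments of 5.55, 4.79 and 5.52 and of 6.05, 5.37 and 6.14. The nearer was in PBRM1 replicates 1 (5.94) and 2 (5.37) and the farther in none. *Dusp6* had a site 1.34 kb past its end (BRG1 4.55, 3.17 and 4.36; PBRM1 3.77 in replicate 3) and another at 86.6 kb without a PBRM1 peak in any replicate (BRG1 6.31, 4.80 and 5.31). These sites were chosen by distance and replicate support, and no link to the genes was tested.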
